A study of Rattus norvegicus with 43 samples.

Results

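The genes described here were 8 genes of estrogen receptor signalling: the receptors Esr1 and Esr2, the receptor targets Pgr and Greb1, the coactivators Ncoa1 and Ncoa3, and the corepressors Nrip1 and Ncor1. They were chosen by symbol, through the probe sets that the platform annotation assigns to each symbol alone. These gave 14 probe sets of 31099 on the array, and 8 genes of 14218 with a singly named probe set. Where a gene had more than 1, the probe set with the highest mean stands for it and the others are given beside it. Levels are log2(intensity + 16) throughout, so that differences between dim values are understated, and brightness was not set against that of another gene as an amount of transcript.

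Anterior pituitary gland was profiled in 43 male F2 rats bred from Copenhagen (COP) females and ACI males, with 1 array per animal. Every rat carried a 5 mg implant of diethylstilbestrol (DES), a synthetic estrogen, from 9 weeks of age for 12 weeks, and received 50 mg/kg BrdU 4 hours before sacrifice at 21 weeks of age. There was no untreated group, so a response to DES cannot be measured in these data, and the relations below are between animals that all received it. The animals were the heaviest 22 and lightest 21 by pituitary weight among the F2 rats, but no label gives the class of an animal, so all 43 were treated as 1 group with no comparison of the weight classes. Selection of extremes can widen spreads and correlations, and each F2 animal carries its own mixture of both strains' alleles.

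Estrogen receptors are transcription factors that bind estrogen, dimerise and attach to DNA at estrogen response elements or through other factors. Bound receptor recruits coactivators such as the p160 proteins encoded by Ncoa1 and Ncoa3, which bring in histone acetyltransferases such as the one encoded by Crebbp. Corepressors such as the proteins of Ncor1 and Nrip1 recruit histone deacetylases. In the pituitary, estrogen acts on lactotrophs, the prolactin cells, raising prolactin synthesis and, in sensitive rat strains, driving lactotroph hyperplasia.

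The sequences before the transcription start are shown for Pgr, a textbook receptor target, and for Ncoa1 and Ncor1, the pair of these genes with the highest correlation between animals. Each is the 250 bases before the start in RefSeq on assembly GRCr8, at chr8:14354148-14354397 on the plus strand for Pgr, chr6:33195925-33196174 on the minus strand for Ncoa1 and chr10:47640351-47640600 on the minus strand for Ncor1. Capitals mark matches, on either strand, to the GC box GGGCGG or to GGTCA, which is a half-site of the estrogen response element.
Pgr: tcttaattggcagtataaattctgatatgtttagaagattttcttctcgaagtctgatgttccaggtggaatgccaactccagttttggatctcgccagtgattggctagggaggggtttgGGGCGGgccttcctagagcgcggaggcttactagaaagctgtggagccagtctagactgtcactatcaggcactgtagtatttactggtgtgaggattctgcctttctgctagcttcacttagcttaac
Ncoa1: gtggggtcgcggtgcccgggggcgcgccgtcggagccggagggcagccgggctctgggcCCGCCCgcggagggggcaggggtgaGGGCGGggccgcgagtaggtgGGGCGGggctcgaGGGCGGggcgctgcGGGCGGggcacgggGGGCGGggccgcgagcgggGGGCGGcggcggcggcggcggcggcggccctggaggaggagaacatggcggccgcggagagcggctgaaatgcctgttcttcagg
Ncor1: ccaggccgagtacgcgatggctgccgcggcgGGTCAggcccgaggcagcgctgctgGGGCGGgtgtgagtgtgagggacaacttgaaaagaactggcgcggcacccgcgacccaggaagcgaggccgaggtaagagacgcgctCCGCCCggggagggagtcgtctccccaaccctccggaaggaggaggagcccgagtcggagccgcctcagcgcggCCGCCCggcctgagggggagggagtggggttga
The full element GGTCANNNTGACC, which contains the half-site, was found in 0 of the 6 genes with a sequence in the table and in 0.0239% of 33469 promoters of this length. The half-site was found once in Ncor1, 2 times in Esr2 and not in the windows of Esr1, Pgr, Nrip1 or Ncoa1, against 35.4% of all promoters with at least 1. The GC box was found 7 times in Ncoa1, 3 times each in Nrip1 (2 of these overlapping) and Ncor1 and 1 time in Pgr, against 30.5% of all promoters with at least 1. These matches are descriptions of letters in the window. Greb1 and Ncoa3 were not matched in this table.

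The tissue was checked against its markers. Prl, prolactin, had a level of 15.61 ± 0.14 (SD, n = 43). Pou1f1, a lineage factor of cell types that include lactotrophs and somatotrophs, had a level of 12.78 ± 0.23 (SD, n = 43). The posterior lobe hormones Oxt and Avp averaged 5.25 and 5.33, and 0 of 4 posterior lobe markers passed the filter, a mean level over 7.16, which is the middle value among probe sets other than controls. The array of animal 43 stood apart: its mean r with the other arrays was 0.927, against 0.967 to 0.976 for the rest. Its actin signal was 1.97 higher (log2) at the 3′ than at the 5′ end, against 1.26 to 1.67 on the others. Results that rest on this animal are given with and without it.

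The receptors were dim. Esr1, which encodes estrogen receptor alpha (chromosome 1), had a level of 6.40 ± 0.62 (SD, n = 43), with a lowest value of 4.38 in animal 5, a median of 6.59 and a highest of 7.37 in animal 13. In intensity these were 4.8, 80.4 and 149. Its mean did not pass the filter, and most animals sat near the median while a few, animal 43 among them at 4.91, formed a lower tail. Among the 200 probe sets closest to it in level, the SD ranked at percentile 77, and at 66.5 without animal 43. Esr2, which encodes estrogen receptor beta (chromosome 6), had a level of 4.52 ± 0.44 (SD, n = 43), with a lowest value of 4.14, a median of 4.33 and a highest of 6.08. The highest value belonged to animal 43, and the median intensity was 4.1, so most of these values lie close to the added constant of 16. A level this low limits what the probe set can show and is not evidence that the transcript is absent.

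The 2 targets were bright, and their SDs ranked at percentiles 51.5 for Pgr and 51 for Greb1 among the 200 probe sets closest in level. Without animal 43 these percentiles were 28 for Pgr and 67 for Greb1. Pgr, the progesterone receptor gene (chromosome 8), had a level of 9.61 ± 0.21 (SD, n = 43), with a lowest value of 8.79, a median of 9.63 and a highest of 9.95. The lowest value was that of animal 43, and the next lowest was 9.28. The SD was 0.17 without animal 43. Greb1, which encodes a cofactor of estrogen receptor alpha (chromosome 6), had a level of 11.15 ± 0.18 (SD, n = 43), with a lowest value of 10.73 in animal 33, a median of 11.17 and a highest of 11.53 in animal 14. Animal 43, at 11.00, lay within the range of the others. The other Greb1 probe set, 1378792_at, was dim at 5.48 ± 0.75 and did not pass the filter.

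Among the coactivators, Ncoa1 (chromosome 6) had a level of 9.31 ± 0.19 (SD, n = 43), between 8.81 in animal 43 and 9.74 in animal 17, with a median of 9.31. Its second probe set, 1390010_at, had a level of 9.00 ± 0.22 and was again lowest in animal 43, at 8.46. Another, 1389909_at, did not pass the filter at 4.53 ± 0.29. Ncoa3 (chromosome 3) had a level of 6.90 ± 0.49 (SD, n = 43), between 5.37 and 7.64 with a median of 6.93, and just missed the filter. Its other probe set, 1380638_at, was also below the filter, at 6.36 ± 0.53.

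Of the corepressors, Nrip1, whose protein RIP140 competes with coactivators on the liganded receptor (chromosome 11), had a level of 10.10 ± 0.26 (SD, n = 43). Its lowest value was 9.40 in animal 12, its median 10.08 and its highest 10.89 in animal 43, with 10.59 as the highest of the others. Ncor1, the scaffold of a histone deacetylase complex (chromosome 10), had a level of 10.14 ± 0.13 (SD, n = 43), between 9.84 and 10.38 with a median of 10.15. Among the 200 probe sets closest to it in level, its SD ranked at percentile 7.5, the lowest of the 8 genes. The other Ncor1 probe sets, 1384293_at and 1372102_at, had levels of 7.85 ± 0.32 and 7.84 ± 0.32. Of the 5 genes that passed the filter, 1, Nrip1, had an SD above 0.23, the median of all probe sets that passed. Without animal 43 the SD of Nrip1 was 0.23.

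**Figure D1:**
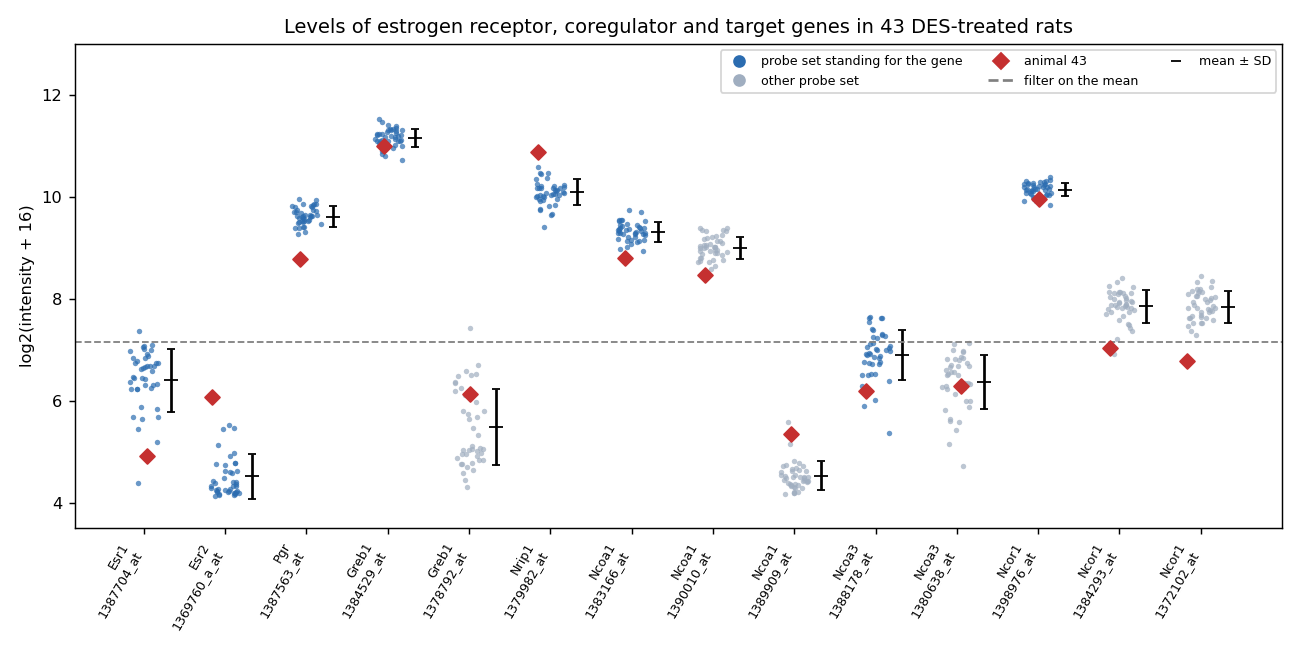
Level, log2(intensity + 16), of the 14 probe sets (x axis) in each of 43 rats (points), with the mean and SD at the right of each column, the filter as a dashed line and animal 43 as a diamond. Animal 43 is lowest for Pgr at 8.79 and for Ncoa1 at 8.81, and highest for Nrip1 at 10.89 and Esr2 at 6.08.

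Levels drifted with animal number for some of the genes. A smooth trend over animal numbers took 43.6% of the variance of Nrip1, 31.4% of Greb1, 29.5% of Pgr and 29.3% of Esr1, against 7.24% of Ncoa1 and 6.9% of Ncor1. A single step between animals 22 and 23 took 24.9% of the variance of Greb1 and 17.6% of Nrip1, but 0.333% of Pgr and 0.0561% of Ncoa1. No label says what the order of the animal numbers stands for. Relations are therefore also given with the trend or the step fitted. The step lies after animal 22, and the weight classes held 22 and 21 animals. Whether the numbers follow the classes is not given, so drift with animal number and a class difference cannot be told apart. Fitting the trend or the step may also remove a class difference.

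Whether probe sets of 1 gene follow each other bears on how far a single probe set can be read. Of 3 further probe sets that passed the filter, 1 was related to its gene's representative. The probe sets of Ncoa1, 1390010_at and 1383166_at, varied together with r = 0.533 (permutation p = 0.00017) and rho = 0.49 (permutation p = 0.00087), and limma's adjusted p was 0.0192, in a fit that called 4.97% of all probe sets. Without animal 43, r was 0.45 and the adjusted p 0.265. For Ncor1, r with 1398976_at was 0.137 for 1372102_at and 0.164 for 1384293_at, with limma adjusted p values of 0.691 and 0.624, where 0.258% of probe sets were called. Results for Ncor1 below describe 1398976_at.

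Relations between the genes were sought by regressing all 15521 probe sets that passed the filter on each gene, with limma, and calling a pair only where the adjusted p was 0.05 or less in both directions. Of the 10 pairs among Pgr, Greb1, Nrip1, Ncoa1 and Ncor1, 0 were called, against 1 with an unadjusted p under 0.05 in limma and 1 by permutation of r with adjustment over all probe sets. That pair was Ncoa1 with Ncor1, a coactivator and a corepressor, which varied together with r = 0.545 (permutation p = 0.00012) and rho = 0.532. The adjusted p was 0.0281 in the Ncoa1 fit and 0.0602 in the Ncor1 fit, which called 4.95% and 0.258% of all probe sets. Without the 2 animals farthest from the median of Ncoa1, animals 43 and 17, r was 0.524. Without animal 43, r was 0.512 and the adjusted p values were 0.214 and 0.144. With the smooth trend also fitted, r was 0.604 and the adjusted p values were 0.0218 and 0.0113, so that this pair was called there. With the step it was not called, at r = 0.55 and adjusted p values of 0.0181 and 0.0587. Quantile normalization gave r = 0.49 (adjusted p of 0.133 and 0.247). The mean of each gene's probe sets gave r = 0.228 (adjusted p of 0.5 and 0.31). The second Ncoa1 probe set gave r = 0.514 with Ncor1, with an adjusted p of 0.075, and the other Ncor1 probe sets gave r of 0.189 and 0.273 with Ncoa1.

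**Figure D2:**
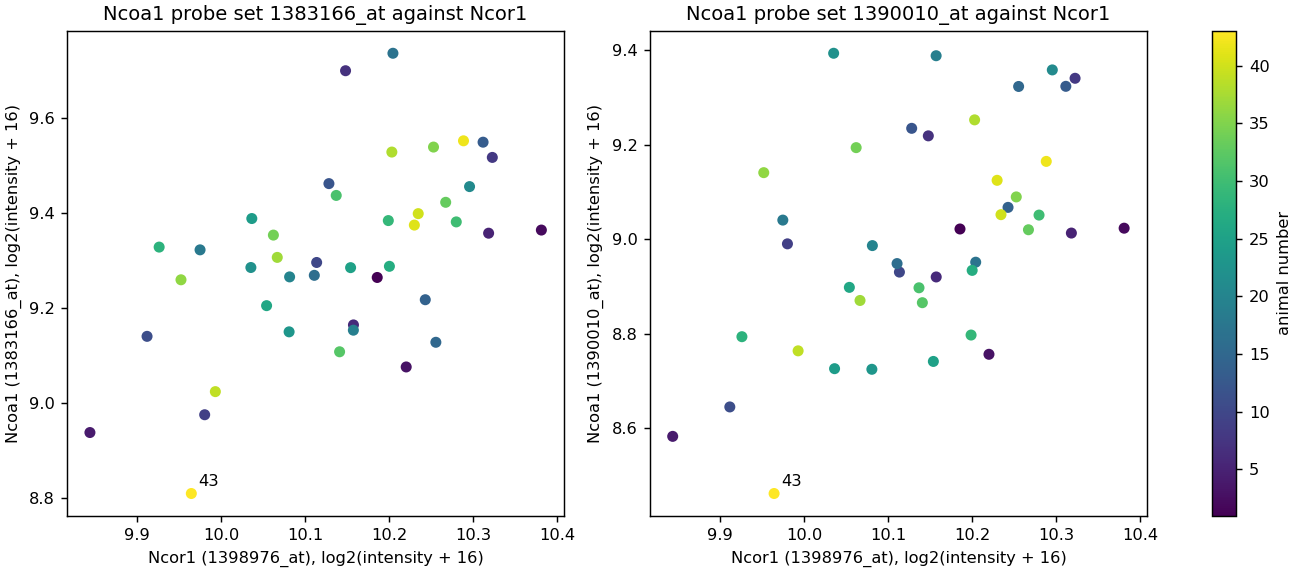
Levels of 2 Ncoa1 probe sets (y axes) against Ncor1 (x axes), log2(intensity + 16), 1 point per rat, coloured by animal number. Both rise with Ncor1 (r = 0.545 on the left, 0.514 on the right), and animal 43 is lowest on both y axes.

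The remaining 9 pairs had r between -0.156 and 0.285. The 2 targets, Pgr and Greb1, had r = 0.129 with each other, with adjusted p values of 0.654 and 0.649. The corepressors Nrip1 and Ncor1 had r = -0.04. Nrip1 was negatively related to the Ncor1 probe set 1372102_at (r = -0.433, adjusted p = 0.017), which the Nrip1 fit called among 25.6% of all probe sets, but without animal 43 the r was -0.251 and the adjusted p 0.332. Esr1 was used as a predictor although it was too dim to pass the filter. It was related to 0 of the 5 genes that passed, in a fit that called 2.54% of all probe sets. Its r was 0.215 with Pgr, 0.273 with Ncoa1, 0.029 with Ncor1, -0.031 with Greb1 and -0.087 with Nrip1 (limma adjusted p of 0.302 to 0.945). For these 5, the count with an unadjusted p under 0.05 was also 0, in limma and by permutation.

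**Figure D3:**
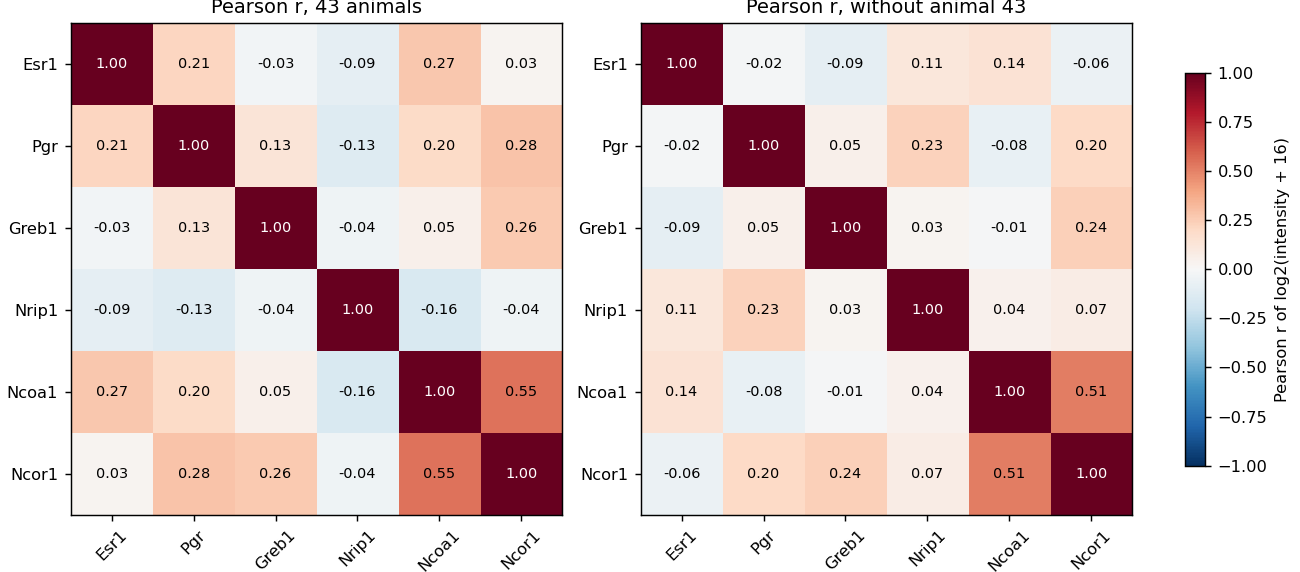
Pearson r between the levels of 6 genes over 43 animals (left) and without animal 43 (right), coloured from -1 to 1. Ncoa1 with Ncor1 has the highest r in both panels, 0.545 and 0.512.

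Many genes across the array followed the level of 1 of these genes, but in each fit the number moved by over 1.5 times without a single animal or with the drift fitted. The Nrip1 fit called 3974 probe sets (25.6%), 1696 higher and 2278 lower with higher Nrip1, and 876 without animal 43, of which 828 were called in both. With the trend in the fit it called 6, and with the step 2443. The Greb1 fit called 1047 (6.75%), 507 higher and 540 lower, and 1049 without animal 43, of which 908 were called in both, but 580 without animal 38. With the trend or the step in the fit, the Greb1 fit called 0, against 2084 and 1212 probe sets with an unadjusted p under 0.05. It also called 0 with the mean of the gene's probe sets, with 421 at an unadjusted p under 0.05. The dim Greb1 probe set, 1378792_at, had r = 0.054 with the one used here. The Pgr fit called 953 (6.14%), 602 higher and 351 lower. It called 0 without animal 43 (1002 with an unadjusted p under 0.05) and 0 by permutation of r or rho. With the trend in the fit it called 37, and with the step 1310. The Ncoa1 fit called 768 (4.95%), 480 higher and 288 lower, and 0 without animal 43, with 1569 at an unadjusted p under 0.05. With the trend in the fit it called 579, and with the step 1491. The Ncor1 fit called 40 (0.258%), 30 higher and 10 lower, with 1 without animal 43. It called 792 with the trend in the fit and 42 with the step. With the mean of each gene's probe sets, the Ncor1 fit called 2469 of 12215 and the Ncoa1 fit 75. The Esr1 fit called 394 (2.54%), 288 higher and 106 lower, with 252 without animal 43, 108 of them shared. It called 5 with the trend and 1450 with the step. By permutation of rho with adjustment, the Nrip1 fit called 447, the Greb1 fit 1261, Ncoa1 25, Esr1 41 and Ncor1 0. With array quality (3′ minus 5′ signal of actin and GAPDH) in the fit, Nrip1 called 719, Greb1 1307 and Pgr 0. There Ncoa1 called 53, Ncor1 130 and Esr1 7.

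The split between directions depended on the scaling. With array medians subtracted, the Greb1 fit called 1011 higher and 441 lower, the Nrip1 fit 1934 and 1132, the Ncoa1 fit 605 and 93, the Pgr fit 547 and 111, the Ncor1 fit 96 and 4, and the Esr1 fit 95 and 56. With quantile normalization the Pgr fit called 32 higher and 11 lower, and the Ncoa1 and Ncor1 fits called 0, with 2428 and 1407 probe sets at an unadjusted p under 0.05.

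**Figure D4:**
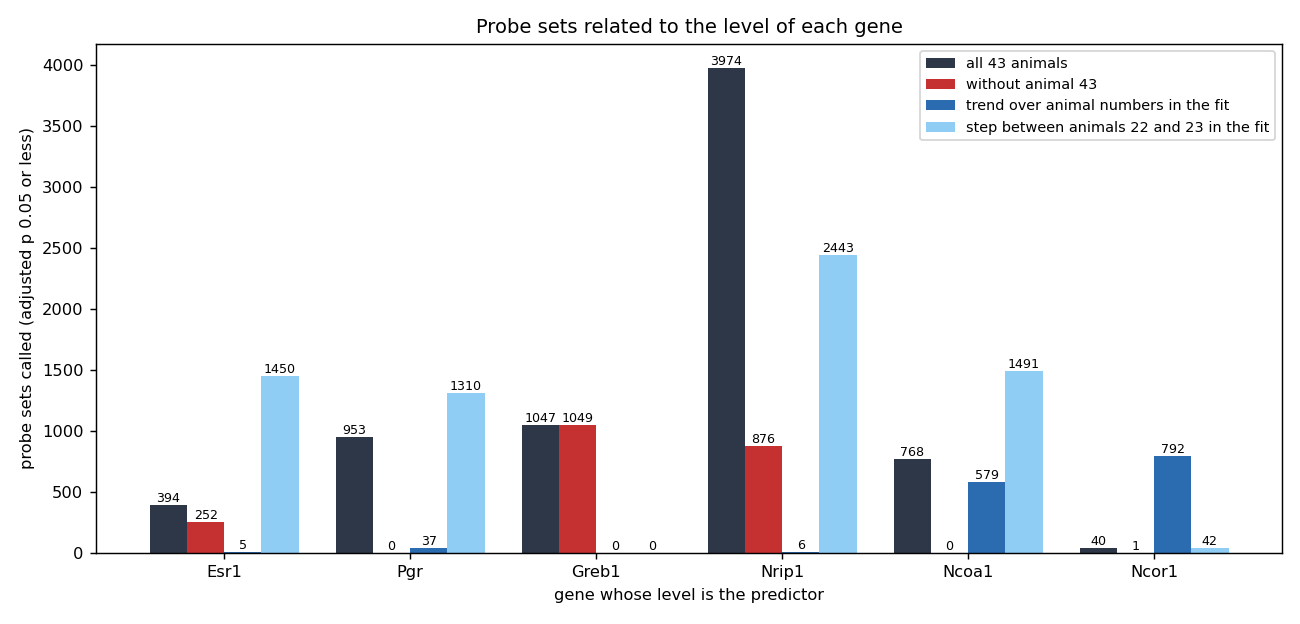
Number of probe sets called (adjusted p 0.05 or less, y axis) in the regression on each of 6 genes (x axis) over all 43 animals, without animal 43, and with the trend or the step over animal numbers in the fit. Pgr and Ncoa1 call 0 without animal 43, and Greb1 calls 1049 without it but 0 with the trend or the step.

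The genes most like Greb1 were Etnk1, an ethanolamine kinase, with r = 0.731 (adjusted p = 0.000583), Mmd, with r = 0.694, and Col24a1, a collagen, with r = 0.685. The genes most opposed were Prpsap2 (r = -0.668), Gprasp2 (r = -0.658) and Schip1 (r = -0.636). These 6 relations had permutation p values of 1e-05 or 2e-05, where 1e-05 is the smallest that 100000 permutations can give. All 6 were called without animal 43, and none was called with the trend or the step in the fit. With the trend, r for Etnk1 was 0.667 with an adjusted p of 0.0618. The genes most like Nrip1 were Smim8 (r = 0.76), Mrps18c, a mitochondrial ribosomal protein gene (r = 0.757), and Pdcd10 (r = 0.757). Those most opposed were Srpra, the receptor for the signal recognition particle (r = -0.803, adjusted p = 1.84e-05), Tfg (r = -0.746) and Bmyc (r = -0.744). For Srpra, r was -0.739 without animal 43, with an adjusted p of 0.00228, and all 6 were called there. With the trend in the fit only Pdcd10 was called (adjusted p = 0.0446), and the other 5 had adjusted p values of 0.0578 to 0.0944. With the step in the fit, all 6 were called (adjusted p of 0.000883 to 0.000943).

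For Esr1 the highest r belonged to Ruvbl1, an ATPase of chromatin remodelling complexes (0.695, adjusted p = 0.00163), Nmt1 (0.69), Prss8 (0.682), the thioredoxin reductase gene Txnrd1 (0.674) and Pxn, paxillin (0.661). The lowest belonged to Pet100 (-0.651), Cd99l2 (-0.633), Mrpl48 (-0.589), Ufm1 (-0.58) and Rars1 (-0.576). Without animal 43, 8 of these 10 were called, all but Ufm1 and Rars1. With the trend in the fit, Prss8 and Mrpl48 were called (adjusted p of 0.0354 and 0.0129), and the other 8 had adjusted p values of 0.104 to 0.227. With the step in the fit, all 10 were called (adjusted p of 0.00143 to 0.00956). With array quality in the fit, Ruvbl1 and Prss8 were called (adjusted p of 0.0254 and 0.00217). The other 8 were not, at adjusted p values of 0.0787 to 0.416. Without animals 5 and 43, the farthest from the median of Esr1, r for Prss8 was 0.352 and for Pxn 0.54. For Ncor1 the genes most alike were Wdfy3 (r = 0.683, adjusted p = 0.00608), Apaf1 (r = 0.615) and Kmt2c, a histone methyltransferase (r = 0.611), and those most opposed were Hspa9 (r = -0.625), Psmd8 (r = -0.616) and Nans (r = -0.605). Psmd8 and Nans were not called, at adjusted p values of 0.0531 and 0.085. Without animal 43, Wdfy3 was the 1 of the 6 called, with an adjusted p of 0.0199.

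For Ncoa1 the genes most alike were Btbd2 (r = 0.658), Ssh2 (r = 0.631) and Cep170b (r = 0.627), and those most opposed were Zfp40 (r = -0.663), Ccdc28a (r = -0.653) and Blzf1 (r = -0.652). None of these 6 was called without animal 43, where the adjusted p of Btbd2 was 0.118, and all 6 were called with the trend in the fit. For Pgr the genes most alike were Fam222b (r = 0.662), Plekha8 (r = 0.66), the small GTPase gene Rac1 (r = 0.658), Chd4 (r = 0.654) and Lmf2 (r = 0.648). The most opposed were Pfn2 (r = -0.65), Atp6v1f (r = -0.644), Sec62 (r = -0.636), Sucla2 (r = -0.632) and Mat2a (r = -0.625). None of the 10 was called without animal 43, where r for Fam222b was 0.341 with an adjusted p of 0.733.

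Other genes of the pathway were read from 5 lists. Of 9 receptor genes 4 passed the filter, of 22 coactivators 16, of 15 corepressors 11, of 8 receptor chaperones 6 and of 30 estrogen-responsive genes 23. In the Greb1 fit, which called 6.75% of all probe sets, 6 of 58 genes tested over the lists were called (10.3%). Of 22 estrogen-responsive genes tested 4 were called, with a median r of -0.02 over the list against -0.01 over all probe sets. Stc2, a secreted glycoprotein, and Pttg1, securin, were higher where Greb1 was higher (r = 0.475 for both, adjusted p of 0.0246 and 0.0275). C3, complement component 3, was lower, with r = -0.544 (permutation p = 0.00015), a slope of -0.76 ± 0.17 (SE) log2 per SD of Greb1 and an adjusted p of 0.00918. S100g, calbindin-D9k, was also lower (r = -0.457, adjusted p = 0.0309). The levels of C3 spanned 6.11 to 11.20 with a median of 9.54, a far wider range than that of Greb1. The coactivator gene Ncoa7 was higher (r = 0.562, adjusted p = 0.0118), and Ptges3, the co-chaperone p23, was lower (r = -0.543, adjusted p = 0.0363). All 6 were called without animal 43 and none with the trend or the step in the fit, where r for C3 was -0.341 and -0.309.

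The Esr1 fit called 2.54% of all probe sets, 73.1% of these higher, and 5 of 59 list genes (8.47%). Of 23 estrogen-responsive genes 3 were called, all higher where Esr1 was higher: Ccnd1, cyclin D1 (r = 0.569, adjusted p = 0.0151), Myc (r = 0.518, adjusted p = 0.0279) and Tgfa, transforming growth factor alpha (r = 0.474, adjusted p = 0.0431). The median r of the list was 0.02, against 0.05 over all probe sets. Of 16 coactivators, Ncoa7 was lower (r = -0.573, adjusted p = 0.0211), and of 6 chaperones Hsp90ab1 was higher (r = 0.569, adjusted p = 0.0213). Without animal 43, Ncoa7 and Tgfa were called, Ccnd1 lay at the threshold without passing it (r = 0.484), and Myc and Hsp90ab1 were not called, at adjusted p values of 0.0817 and 0.0797. For Tgfa the permutation p adjusted over all probe sets was 0.0587. None of the 5 was called with the trend in the fit, but all 5 were called with the step (adjusted p of 0.00288 to 0.015). With array quality in the fit none of the 5 was called (adjusted p of 0.157 to 0.414). By permutation of rho none was called either, at adjusted p values of 0.112 to 0.127.

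In the Ncoa1 fit 5 of 58 list genes were called (8.62%), against 4.95% of all probe sets, Ncor1 among them. The acetyltransferase gene Crebbp (r = 0.477), the corepressor scaffold gene Sin3a (r = 0.46) and the co-chaperone gene Fkbp5 (r = 0.539) were higher with Ncoa1, and Rbm39, a coactivator that also acts in splicing, was lower (r = -0.524), with adjusted p values of 0.0193 to 0.0424. None was called without animal 43. Crebbp, Rbm39 and Fkbp5 were called with the trend in the fit (adjusted p of 0.0293 to 0.0458), and Sin3a was not (adjusted p = 0.0735). With the step, these and Sin3a were called (adjusted p of 0.0137 to 0.0305). Crebbp was also the 1 list gene of 58 (1.72%) called in the Ncor1 fit, against 0.258% of all probe sets (r = 0.584, adjusted p = 0.0377). There r was 0.569 and the adjusted p 0.0741 without animal 43, and the adjusted p was 0.00688 with the trend and 0.039 with the step. In the Pgr fit 1 list gene of 58 (1.72%) was called, against 6.14% of all probe sets: Tbl1xr1 of the Ncor1 complex (r = -0.551), and without animal 43 its r was -0.23. In the Nrip1 fit 14 of 58 list genes were called (24.1%), against 25.6% of all probe sets, 4 of them higher and 10 lower, and 0 of them without animal 43. The highest in size were Ptges3 (r = 0.554), Smarca4, an ATPase of the SWI/SNF complex (r = -0.552), and Rbm39 (r = 0.513).

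Whole gland RNA mixes cell types, and fewer cells of a type and less RNA per cell cannot be told apart. The genes were therefore set against scores of cell type markers, each the mean centred level of a list's genes that passed the filter. Of 35 relations of 5 genes with 7 scores, 5 were called, 4 of them Greb1. The fits on these 7 scores called between 0.316% and 33% of all probe sets. All 5 were with the scores whose fits called the most, 7.42% to 33%. The count is therefore not read as particular to these genes. Greb1 was lower where the somatotroph score was higher (5 genes, Gh1 among them), with r = -0.503 (permutation p = 0.00062), rho = -0.556 and a limma adjusted p of 0.0112, where 13.5% of probe sets were called. Against the gonadotroph score (5 genes, Fshb and Lhb among them) r was -0.442 (permutation p = 0.00319), rho = -0.481 and the adjusted p 0.0196, where 25.6% of probe sets were called. Against the folliculostellate and stem cell score (3 genes) r was -0.472 (permutation p = 0.00134), rho = -0.437 and the adjusted p 0.032, where 7.42% were called. Against the endothelial score (3 genes) r was -0.374 (permutation p = 0.013), rho = -0.361 and the adjusted p 0.0468, where 33% were called. Nrip1 was higher where the endothelial score was higher, with r = 0.379 (permutation p = 0.012), rho = 0.322 and an adjusted p of 0.0355.

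These scores themselves drifted with animal number. The trend took 64.8% of the variance of the somatotroph score, 75.2% of the gonadotroph, 59.8% of the folliculostellate and stem cell and 51.3% of the endothelial score, and the step took 78.5% of the gonadotroph score. The gonadotroph values lay in 2 clumps, with a difference in BIC of 7.83, under the 10 set for treating them as separate clusters. With the trend in the fit, r of Greb1 was -0.19, 0.003, -0.294 and -0.137 for the somatotroph, gonadotroph, folliculostellate and stem cell, and endothelial scores, and with the step it was -0.23, 0.001, -0.304 and -0.042. None was called in either fit, nor was Nrip1 with the endothelial score, where r was -0.013 with the trend. Without animal 43, Greb1 remained called with the somatotroph, gonadotroph and folliculostellate and stem cell scores (r of -0.488, -0.427 and -0.482), and the endothelial relations were not called (r = -0.35 for Greb1 and 0.223 for Nrip1). Without animal 38, Greb1 was not called with the folliculostellate and stem cell score (r = -0.419, adjusted p = 0.0884) or the endothelial score (r = -0.346, adjusted p = 0.0764), nor was Nrip1 with the endothelial score (r = 0.357, adjusted p = 0.0539). All 5 somatotroph and all 5 gonadotroph markers passed the filter, but 3 of 6 folliculostellate and stem cell and 3 of 8 endothelial markers did, with Pecam1, a defining endothelial gene, at 6.86 ± 0.58 (SD, n = 43). Scores ranged from -0.92 to 0.64 for somatotroph, -0.78 to 0.67 for gonadotroph, -0.64 to 0.56 for folliculostellate and stem cell and -0.54 to 0.62 for endothelial markers. The part of cell composition, of the weight classes and of the drift in the Greb1 levels was not tested.

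**Figure D5:**
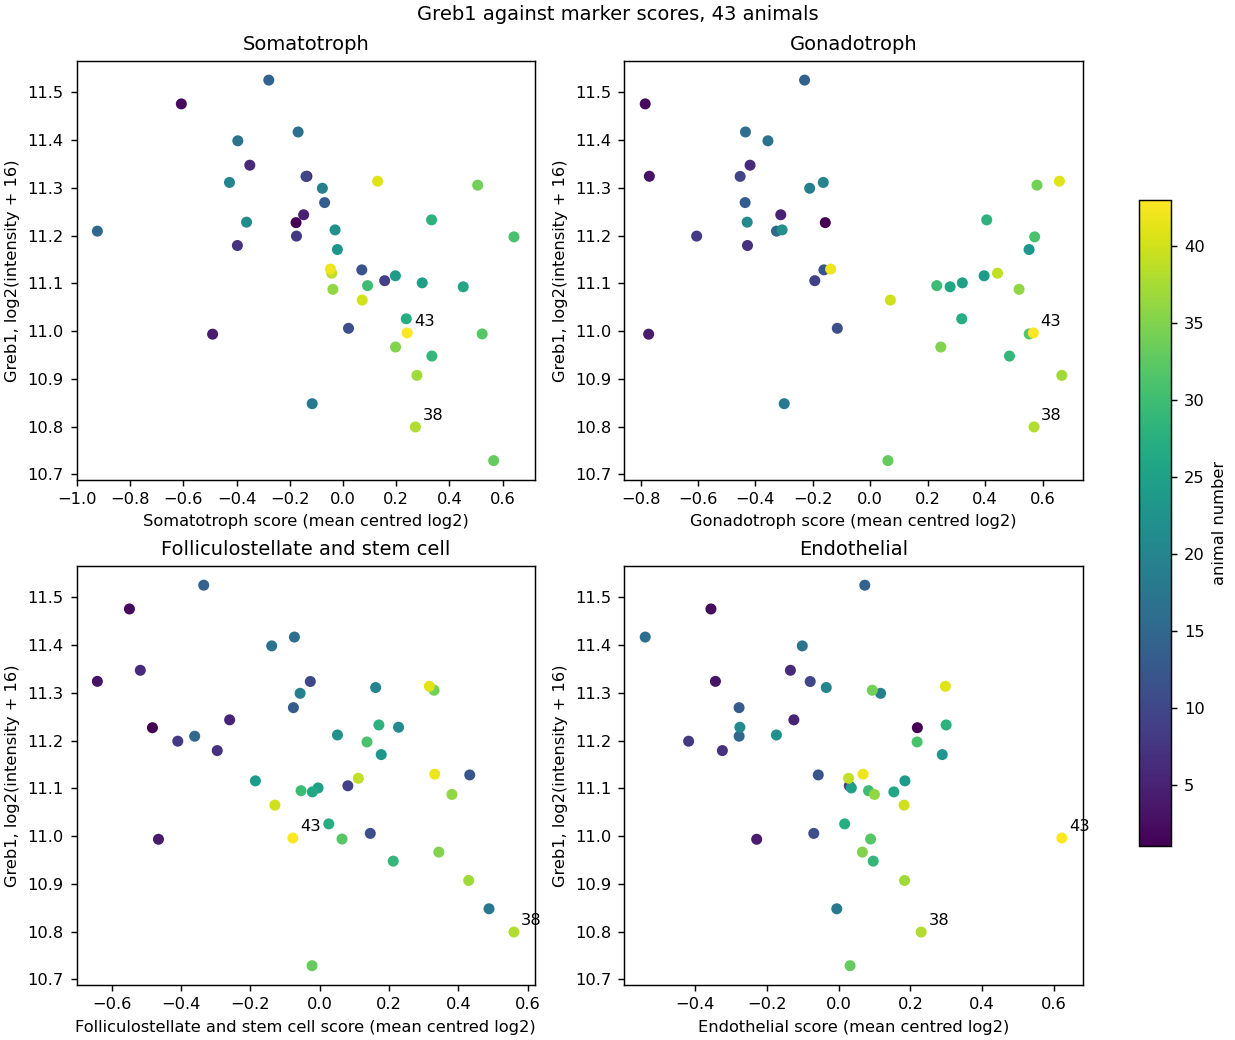
Level of Greb1, log2(intensity + 16) (y axes), against 4 marker scores, mean centred log2 (x axes), 1 point per rat, coloured by animal number. Greb1 is lower at higher scores (r = -0.503, -0.442, -0.472 and -0.374), and colour changes along every x axis, most sharply for the gonadotroph score.

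With the lactotroph score (4 genes), whose fit called 1.39% of probe sets, Greb1 had r = -0.418 with an adjusted p of 0.129. No gene was called with the macrophage and leukocyte score or the fibroblast and matrix score, whose fits called 0.316% and 2.98% of probe sets. Greb1 had r = 0.353 with the macrophage and leukocyte score (adjusted p = 0.388), but with the stricter filter, where the score holds fewer genes, r was -0.434 and the adjusted p 0.0354. The proliferation score (29 genes) was compared in 42 animals, since animal 38 formed a cluster of its own at -0.88, against -0.34 for the next lowest animal. Its fit called 1195 probe sets (7.72%), against 169 without animal 43, and 0 of the 5 genes, with 1 of 5 at an unadjusted p under 0.05 in limma and 0 by permutation with adjustment. Nrip1 had r = -0.322 (adjusted p = 0.159) and Greb1 r = 0.299 (adjusted p = 0.22), while Pgr, Ncoa1 and Ncor1 had r of 0.18, 0.056 and -0.089. Without animal 43, r was -0.156 for Nrip1 and 0.26 for Greb1.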

How the data were processed

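Total RNA of 43 anterior pituitaries was hybridised as biotin-labelled cRNA, 1 sample per array. The authors deposited 1 linear intensity per probe set, scaled to a trimmed mean of 500.2 on every array (array medians of 123 to 142). For the software that summarised the probes, no name was found in the labels. Precision is limited by the number of arrays.

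Of 31099 probe sets, 57 were controls, 20832 carried 1 gene symbol and were named, and 436 carried several symbols. After log2(intensity + 16), 15521 probe sets had a mean above the median (7.16) and passed the filter. These were regressed on each gene and marker score with limma 3.58.1 (lmFit, eBayes) in R 4.3.3, with slopes per SD and Benjamini-Hochberg adjustment over all probe sets tested. Pearson and Spearman correlations had 2-sided permutation tests (100000 permutations). Scores in separate clusters (BIC difference over 10) were tested in the main cluster. Named genes are the 8 genes, list genes called in a fit or needed for a count, the 5 highest and 5 lowest r for Esr1 and Pgr and the 3 of each for the others, and markers. The genes and lists were chosen with earlier results of these data known. Alternatives were other normalizations, pseudocounts, filters, averaged probe sets, covariates for array quality (3′ minus 5′ signal of actin and GAPDH), trend and step, ranks, and leaving out animals 43 and 38. Code was tested on simulated data. Weight classes and genotypes were not used.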

Additional observations from a re-analysis of the deposited data

How the results depend on the processing

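Counts of calls are compared with the main ones: 1 agreeing probe set of 3, 0 of 10 pairs, 394 probe sets for Esr1, 0 of 5 genes with proliferation and 5 of 35 marker score relations. The number of agreeing probe sets was 0 with quantile normalization, no filter, array quality, normal scores of ranks or without animal 43. The number of pairs called was 1 with array medians subtracted, the stricter filter, the mean of a gene's probe sets (there Nrip1 with Ncor1) or the trend. The Esr1 fit called 151 with array medians subtracted, 257 with pseudocount 1, 49 with no filter, 219 with averaged probe sets, 7 with array quality, 5 with the trend, 1450 with the step, 252 without animal 43 and 0 with normal scores (2251 at an unadjusted p under 0.05). The marker relations called numbered 1 with the stricter filter (Greb1 with the macrophage and leukocyte score at r = -0.434, not among the 5, whose scores had too few genes left to be computed), 0 with averaged probe sets, the trend or the step, 2 with array quality, without animal 38 or with normal scores, and 3 without animal 43. The number of genes called with proliferation stayed at 0 in all alternatives run. With averaged probe sets, which bring the dim probe set 1378792_at into Greb1, r of Greb1 turned to 0.073, 0.087 and 0.124 with the somatotroph, gonadotroph and endothelial scores. With the gonadotroph score it was 0.003 with the trend and 0.001 with the step, and r of Nrip1 with the endothelial score was -0.013 with the trend. The cause of these changes was not tested. Of 685 values of r for single relations under an alternative, 651 kept their side of the threshold, 22 lost their call in the same direction, 6 gained one, and 6, those above, were relations called over all animals that changed sign. Among relations not called over all animals, 85 values had the other sign. Probe set agreement could not be computed with averaged probe sets or the stricter filter. The SD of the dim receptor genes depended on the pseudocount, at 1.10 for Esr2 with pseudocount 1, and 0.357 for Esr1 and 0.172 for Esr2 with pseudocount 64. That of Greb1 was 0.391 with averaged probe sets. No paired analysis was possible because the labels give 1 group. Low signal limits Esr1, Esr2 and Ncoa3.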
